A study of Mus musculus with 9 samples.

Results

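Expression of 10 genes that enterocytes use to absorb fat and to build lipoproteins was read from bulk RNA-Seq of 3 cell populations of the mouse small intestine. The genes are Cd36, Fabp1, Fabp2, Dgat1, Dgat2, Apob, Mttp, Apoa1, Apoa4 and Apoc3, taken by gene symbol, and all 10 of them were among the 35013 gene symbols of each of the 2 deposited tables. Every library came from NFKO mice aged 4 to 6 weeks, with the genotype Neurog3Cre-FoxO1 f/f; Rosa26tdtomato, and primary epithelial cells were sorted after staining for EpCAM and CD24. CD24negTomato+ and CD24+Tomato+ cells descend from progenitors in which the Neurog3-driven Cre was active, so they carry the recombined reporter and the floxed FoxO1 alleles were exposed to Cre. Tomatoneg cells are the other epithelial cells of NFKO mice, they carry the same alleles without the reporter signal, and the labels give no CD24 gate for them. Each population had 3 biological replicates, and neither the labels nor the methods give the number of mice per library. No library came from mice without the floxed alleles, so lineage and FoxO1 deletion cannot be told apart in either comparison.

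Enterocytes line the villus and take up the fatty acids and monoglycerides released by digestion. Inside the cell, fatty acids are carried by binding proteins, re-esterified to triglyceride in the endoplasmic reticulum, and loaded onto apolipoprotein B to form chylomicrons, which leave through the lymph. Apolipoproteins A-I, A-IV and C-III are made in the same cells and join these particles. The secretory cells that arise from Neurog3 progenitors, such as enteroendocrine cells, are not known for this pathway.

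Promoters are shown first for the 3 genes whose 250 bases before the RefSeq transcription start (GRCm38.p6) held a match to a searched motif. Sequences were at hand for 7 of the 10 genes, that is all but Dgat1, Dgat2 and Apoc3. Both strands were searched for 5 motifs. The core promoter motif TATAAA was held by 12.4% of 32817 RefSeq promoters of the same length. A site of the hepatocyte nuclear factor HNF4, spelled CAAAGTCCA, was held by 0.384%. A site of forkhead factors, the class to which FoxO1 belongs, spelled TGTTTAC, was held by 3.16%. A site of the intestinal homeobox factor CDX2, spelled TTTATNG, was held by 9.81%, and a site of zinc finger factors such as GATA4, spelled AGATAA, by 9.99%. TATAAA was found in 2 of the 7 promoters, those of Fabp1 and Apob, and TTTATNG in 3, those of Fabp1, Fabp2 and Apob. None of the 7 held any of the other motifs as spelled. The sequences read 5′ to 3′ on the strand of the gene and end at the base before the start, and capitals mark the matches. They cover chr6:71199629-71199878 for Fabp1, chr3:122894822-122895071 for Fabp2 and chr12:7977427-7977676 for Apob, all on the plus strand.
Fabp1: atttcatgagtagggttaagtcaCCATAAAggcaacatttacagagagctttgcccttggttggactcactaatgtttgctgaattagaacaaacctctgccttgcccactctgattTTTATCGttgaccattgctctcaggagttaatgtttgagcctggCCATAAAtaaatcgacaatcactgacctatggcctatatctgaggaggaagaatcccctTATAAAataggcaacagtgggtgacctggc
Fabp2: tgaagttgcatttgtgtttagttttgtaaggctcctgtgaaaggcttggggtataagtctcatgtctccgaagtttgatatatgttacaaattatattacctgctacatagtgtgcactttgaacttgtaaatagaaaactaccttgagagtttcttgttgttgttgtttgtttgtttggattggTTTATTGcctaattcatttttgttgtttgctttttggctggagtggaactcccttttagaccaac
Apob: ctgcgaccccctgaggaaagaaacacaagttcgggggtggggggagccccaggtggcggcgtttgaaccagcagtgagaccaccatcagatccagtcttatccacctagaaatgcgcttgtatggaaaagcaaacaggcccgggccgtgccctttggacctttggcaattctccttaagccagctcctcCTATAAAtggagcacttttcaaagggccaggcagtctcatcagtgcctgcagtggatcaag
In Fabp1, TATAAA began 30 bases before the start, and TTTATNG was matched 3 times, on the plus strand 133 bases before it and on the minus strand at 227 and 89 bases. The single Fabp2 match began 65 bases before the start. The Apob TATAAA began 60 bases before the start, and its TTTATNG match, on the minus strand, overlaps it. A match is only a match of letters.

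The libraries summed to between 22594850 and 30332463 normalized counts, that is gene counts estimated by kallisto and scaled by the authors. Read depth is unknown, because whole reads could not be recovered from these values. Tomatoneg replicate 1 stood apart, with 13025 genes above 0 against 15644 to 18530 in the other libraries, and replicate 1 was also the library with the highest summed level of the 10 genes in all 3 populations. The 10 genes made up 0.809% to 1.78% of the total in CD24negTomato+ libraries, 0.717% to 2.2% in Tomatoneg libraries and 0.112% to 0.408% in CD24+Tomato+ libraries. Mitochondrially encoded genes took 10.5% to 15.8% of the total in CD24negTomato+, 6.95% to 8.51% in Tomatoneg and 3.44% to 6.90% in CD24+Tomato+ libraries. Foxo1, the floxed gene, read 467, 274 and 371 normalized counts in CD24negTomato+ replicates 1, 2 and 3, against 695, 518 and 424 in Tomatoneg. These ranges overlapped, and the log2 fold change was -0.56 ± 0.33 (SE, adjusted p = 0.427 with limma). In CD24+Tomato+ cells Foxo1 read 319, 193 and 201, against 748, 529 and 444 in Tomatoneg, without overlap. That difference was -1.27 ± 0.36 on the log2 scale, with an adjusted p of 0.0579 with limma and 0.0219 in the fit that takes the replicate number as a block. The gene-level value does not separate the floxed part of the gene from the rest of the transcript.

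Levels of the 10 genes were compared with one another as CPM, normalized counts scaled to a library total of 1000000, per kilobase of transcript, in the Tomatoneg cells. Apoa1 was at 3985 ± 3069 (mean ± SD, n = 3), Fabp1 at 1995 ± 1456, Apoa4 at 1394 ± 1502 and Fabp2 at 1057 ± 433. Mttp followed at 492 ± 255, Dgat1 at 349 ± 33.3 and Apoc3 at 178 ± 176. The lowest levels were those of Dgat2 (63.0 ± 23.0), Apob (35.1 ± 24.2) and Cd36 (3.18 ± 2.33). Neighbours in this order overlapped over their 3 libraries, except for Apob and Cd36. Replicate 1 was well above replicates 2 and 3 for the apolipoproteins, whereas Dgat1 was at 329, 332 and 388. Apob has by far the longest transcript, 13934 bases against 526 for Apoc3 and 553 for Fabp1, and in CPM without the length its mean was above those of Dgat2 and Apoc3.

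The 10 genes read lower in CD24+Tomato+ cells than in Tomatoneg cells. All 10 were lower in each of the 3 same-numbered pairs, which held for 24.1% of the 13874 genes tested, and 8 of the 10 did not overlap between the populations, which held for 14.4%. With limma, 6 of the 10 were called lower at an adjusted p under 0.05, against 4.89% of all genes tested: Fabp1, Fabp2, Dgat1, Dgat2, Mttp and Apoa1. The median log2 fold change of the 10 was -2.32, beside 0.16 over all genes tested. In the fit blocked on replicate, all 10 were called lower, against 9.95% of all genes. Without replicate 1 of both populations the count was 9, all but Apob. The count rested on single libraries: it fell to 0 without CD24+Tomato+ replicate 2 and to 1, Dgat1, without CD24+Tomato+ replicate 3, and was 4 or 5 without any of the others. Of the 6 fits with 1 library left out, Dgat1 was called in 5, Fabp1 and Mttp in 4, Fabp2 in 3, Apoa1 in 2 and Dgat2 in 1. With any 1 library left out, the log2 fold changes of the 6 called genes ranged from -3.53 to -1.39. In bulk RNA, fewer cells of a type and less RNA per cell cannot be told apart.

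**Figure D1:**
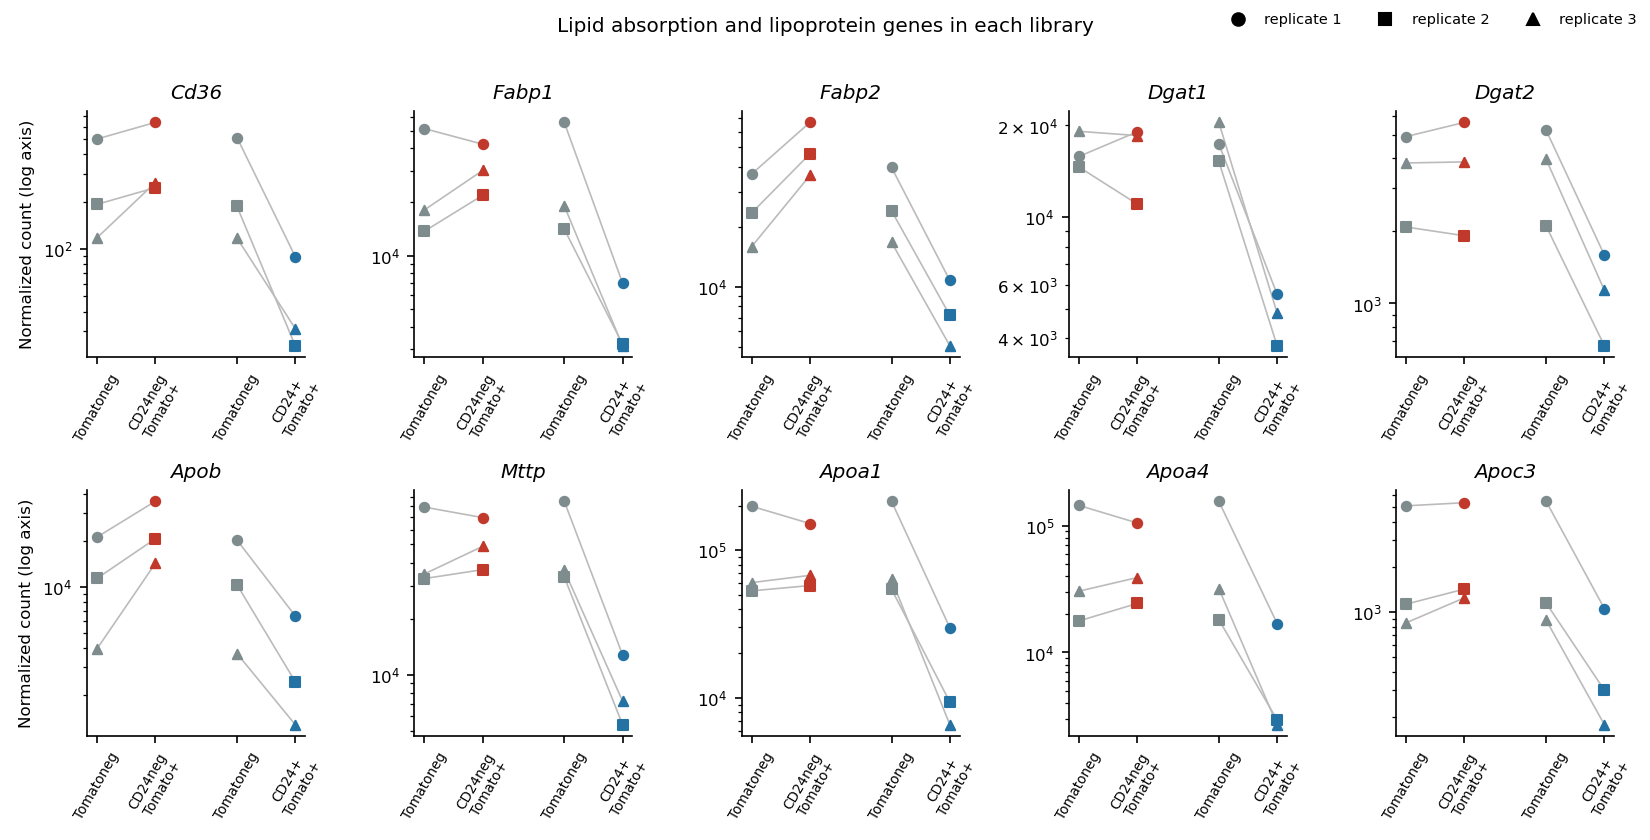
Normalized counts of the 10 genes in every library, on a log axis for each gene, with Tomatoneg in grey, CD24negTomato+ in red and CD24+Tomato+ in blue. Lines join same-numbered replicates within a table, and the Tomatoneg libraries appear in both tables. Every line from Tomatoneg to CD24+Tomato+ falls, and those to CD24negTomato+ go both ways.

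Uptake and binding came first in the pathway. Cd36, a membrane receptor for long-chain fatty acids on chromosome 5 (17781690 to 17888801, GRCm38, minus strand), read 89.4, 24.2 and 31.1 normalized counts in CD24+Tomato+ replicates 1, 2 and 3. In Tomatoneg it read 512, 187 and 117, and the highest CD24+Tomato+ value lay below the lowest of these. The log2 fold change was -2.43 ± 0.76 (SE), which missed the threshold with limma (adjusted p = 0.0801) and passed it with the block (0.0224).

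Fabp1, the liver-type fatty acid binding protein of the enterocyte cytosol (chromosome 6, 71199827 to 71205023, plus strand), read 7019, 3187 and 3121 in CD24+Tomato+ and 56028, 14111 and 19039 in Tomatoneg. Replicate 1 was the highest in both populations, and the groups were well apart. Fabp1 was 6.0-fold lower, a log2 fold change of -2.58 ± 0.56 (adjusted p = 0.0258 with limma). Its intestinal relative Fabp2 (chromosome 3, 122895072 to 122899506, plus strand) read 10791, 7215 and 5082 against 39687, 24080 and 16742. Here too the groups did not overlap, and the pairs differed little from each other. Fabp2 was 3.43-fold lower, at -1.78 ± 0.41 (adjusted p = 0.0304 with limma), and its differences within pairs were -1.88, -1.74 and -1.72.

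The last step of triglyceride synthesis is catalysed by the acyltransferases DGAT1 and DGAT2, which are unrelated in sequence. Dgat1 (chromosome 15, 76502015 to 76511953, minus strand) read 5576, 3774 and 4837 in CD24+Tomato+ and 17374, 15244 and 20473 in Tomatoneg. It varied least among the 10 genes within a population, and the gap between the populations was wide. Dgat1 was 3.76-fold lower, at -1.91 ± 0.24, with the smallest adjusted p of the 10 (0.00592 with limma). Dgat2 (chromosome 7, 99153658 to 99182719, minus strand) read 1585, 668 and 1134 against 5219, 2094 and 3953. The CD24+Tomato+ values again stayed below all Tomatoneg values. Dgat2 was 3.30-fold lower, at -1.72 ± 0.43 (adjusted p = 0.0400 with limma), and lost the call when any library but Tomatoneg replicate 2 was left out.

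Lipoprotein assembly starts with apolipoprotein B, the structural protein of chylomicrons, and with the microsomal triglyceride transfer protein Mttp, which loads lipid onto it. Apob (chromosome 12, 7977648 to 8016835, plus strand) read 6476, 2421 and 1274 in CD24+Tomato+ and 20145, 10328 and 3695 in Tomatoneg. Replicates differed so widely in both populations that the groups overlapped, although CD24+Tomato+ was the lower in each pair. The log2 fold change was -1.75 ± 0.74, which missed the threshold with limma (adjusted p = 0.175) and passed it with the block (0.000784). Mttp (chromosome 3, 138089854 to 138144968, minus strand) read 12794, 5399 and 7226 against 85260, 33493 and 36339. The groups were far apart, and Mttp was 5.92-fold lower, at -2.57 ± 0.47 (adjusted p = 0.0163 with limma).

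Apoa1, Apoc3 and Apoa4 lie side by side on chromosome 9, and with Apoa5 they span 43340 bases from 46228580 to 46271919. Apoa1, which encodes the main protein of high density lipoprotein, read 29849, 9380 and 6587 in CD24+Tomato+ and 214423, 54442 and 63492 in Tomatoneg. The groups did not overlap, and Apoa1 was 7.38-fold lower, at -2.88 ± 0.72 (adjusted p = 0.0399 with limma). Apoa4, an intestinal apolipoprotein secreted with chylomicrons, had the largest log2 fold change of the 10, -3.13 ± 0.95. Its values were 16906, 2938 and 2694 in CD24+Tomato+ and 155560, 18139 and 31916 in Tomatoneg. They did not overlap, but the lowest Tomatoneg value was close to the highest CD24+Tomato+ value, and the adjusted p was 0.0740 with limma and 0.000249 with the block. Apoc3, whose product inhibits lipoprotein lipase, read 1053, 301 and 177 against 5477, 1149 and 885. CD24+Tomato+ replicate 1 lay above Tomatoneg replicate 3, and the difference of -2.21 ± 0.85 had an adjusted p of 0.139 with limma and 0.000775 with the block.

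**Figure D2:**
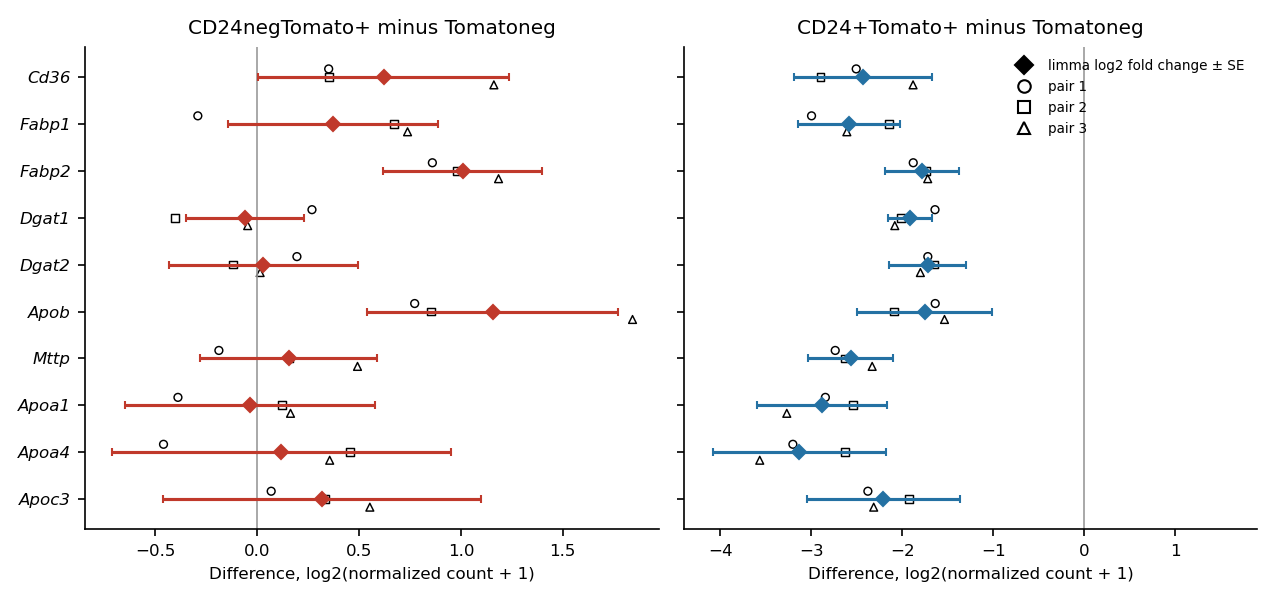
Log2 fold changes of the 10 genes against Tomatoneg, as limma estimates with SE (diamonds) and as differences within same-numbered pairs (open symbols). All CD24+Tomato+ estimates lie between -3.13 and -1.72, and the CD24negTomato+ estimates between -0.06 and 1.16. The horizontal scales of the panels differ.

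Of 67 other genes of the pathway, 63 passed the filter in this table, and with limma 23 were called lower and 5 higher, against 4.89% and 8.02% of all genes. Their median log2 fold change was -0.77, beside 0.16 over all genes. The counts rested on CD24+Tomato+ libraries, with 2 lower and 1 higher without replicate 2, 4 and 1 without replicate 3, and 15 and 2 without replicate 1. Without Tomatoneg replicate 3 they were 19 and 3. In uptake and activation, 4 of 13 were lower and 2 higher. Among those lower were Fabp6, the ileal bile acid binding protein (-2.86 ± 0.21), and Acsl5, an acyl-CoA synthetase (-2.39 ± 0.46). In re-esterification and storage, 8 of 17 were lower and 2 higher, with Mogat2, which makes diglyceride from absorbed monoglyceride, at 2388 ± 1058 against 12616 ± 4070 normalized counts (mean ± SD, n = 3, log2 fold change -2.43 ± 0.37). In lipoprotein assembly and export, 6 of 17 were lower and 1 higher, with Tm6sf2, which takes part in lipidating nascent particles, at -2.33 ± 0.36. Among regulators, 5 of 16 were lower (10 with the block) and none of the 16 higher, and the lowest was Creb3l3, a membrane-bound transcription factor of lipid metabolism genes (-2.88 ± 0.43). The factors Hnf4a and Hnf4g were not called, at -0.49 ± 0.23 (adjusted p = 0.218 with limma) and -1.55 ± 0.54 (0.105, and 0.00742 with the block).

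The median of the list was below 0, and 5 of its 63 tested genes were called higher in CD24+Tomato+. That share is close to the 8.02% called higher over all genes tested. Mgll, a monoglyceride lipase, read 2073, 1827 and 1478 normalized counts against 164, 115 and 157 in Tomatoneg. These values were far apart, at 3.62 ± 0.28 on the log2 scale (adjusted p = 0.00133 with limma). Scarb1, a receptor for high density lipoprotein, read 1528, 1344 and 1508 against 412, 140 and 178, at 2.74 ± 0.41 (adjusted p = 0.00969). Apom, a minor apolipoprotein, read 34.9, 51.9 and 34.5 and was listed at 0 in Tomatoneg replicates 1 and 3 and at 7.76 in replicate 2. It passed the filter through its CD24+Tomato+ values alone, and its call (adjusted p = 0.0474 with limma) was lost with a pseudocount of 0.1, without the filter, with library totals made equal, under quantile normalization, and without Tomatoneg replicate 3 or any 1 CD24+Tomato+ library. The other two were Slc27a1, a fatty acid transporter (1.24 ± 0.31), and Soat1, a sterol acyltransferase (1.35 ± 0.31), both named after their values were seen because the count was small.

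Brush border genes of enterocytes, in a list that also holds the keratin gene Krt20, moved with the 10 genes. All 17 were lower in every pair in CD24+Tomato+, with a median log2 fold change of -2.15, and 8 were called lower with limma, none without CD24+Tomato+ replicate 2 or without CD24+Tomato+ replicate 3, 5 without Tomatoneg replicate 3, and all 17 with the block. Their summed level was 2785 to 8912 CPM in CD24+Tomato+ and 12295 to 40371 CPM in Tomatoneg, and none of the 17 was at 0 in all libraries. Of the 4 most abundant, Anpep, aminopeptidase N, was at -2.61 ± 0.64 (adjusted p = 0.0385) and Slc5a1, the sodium-glucose cotransporter, at -2.50 ± 0.53 (0.0250). Vil1, the actin-bundling villin, was at -1.54 ± 0.45 (0.0668) and Mgam, a disaccharidase, at -2.04 ± 0.86 (0.174), all with limma, and these last 2 missed the threshold. Of 4 ileal enterocyte genes, 3 were called lower. Secretory markers went the other way, with 12 of 12 enteroendocrine, 9 of 9 goblet, 8 of 8 Paneth and 6 of 8 tuft genes called higher, while 0 of 8 stem cell genes were called with limma (0 at an unadjusted p under 0.05, and 1 higher with the block). Without CD24+Tomato+ replicate 2 these counts were 10 enteroendocrine, 3 goblet, 0 Paneth and 3 tuft genes, and without CD24+Tomato+ replicate 3 they were 11, 4, 0 and 5. The summed enteroendocrine level was 12091 to 24105 CPM against 240.0 to 608 in Tomatoneg, and that of Paneth genes 23277 to 85087 against 1563 to 6781. The part of these changes in the lower lipid genes was not tested.

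Cells from outside the epithelium were looked for by their markers. Of 10 leukocyte genes, 6 were called lower in CD24+Tomato+, with a summed level of 24.1 to 30.8 CPM against 101 to 394, and 0 were called without CD24+Tomato+ replicate 2 and 3 without CD24+Tomato+ replicate 3. Of 8 hepatocyte markers 4 passed the filter and 1, Hpx, was called higher, while with the block 0 were called. Hpx read 28.9, 19.9 and 16.1 normalized counts and was listed at 0 in all Tomatoneg libraries. It thus passed the filter through its CD24+Tomato+ values alone. Alb, the albumin gene of liver, read at most 35.7 in any library. The most abundant of the 8, Cps1, read 13155 ± 1329 normalized counts in CD24+Tomato+ and 19296 ± 6087 in Tomatoneg. Its log2 fold change was -0.51 ± 0.28 (adjusted p = 0.290 with limma). The hepatocyte markers summed to 430 to 620 CPM in CD24+Tomato+ and 561 to 1102 CPM in Tomatoneg. Of 8 endothelial and adipose markers 4 passed the filter and 1, Lpl, was called higher, while Adipoq was listed at 0 throughout. Neither Hpx nor Lpl was called when any 1 CD24+Tomato+ library was left out, and Hpx was also not called without Tomatoneg replicate 3. Of 7 acinar genes tested, 0 were called with limma, 5 had an unadjusted p under 0.05 and 2 were called higher with the block.

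**Figure D3:**
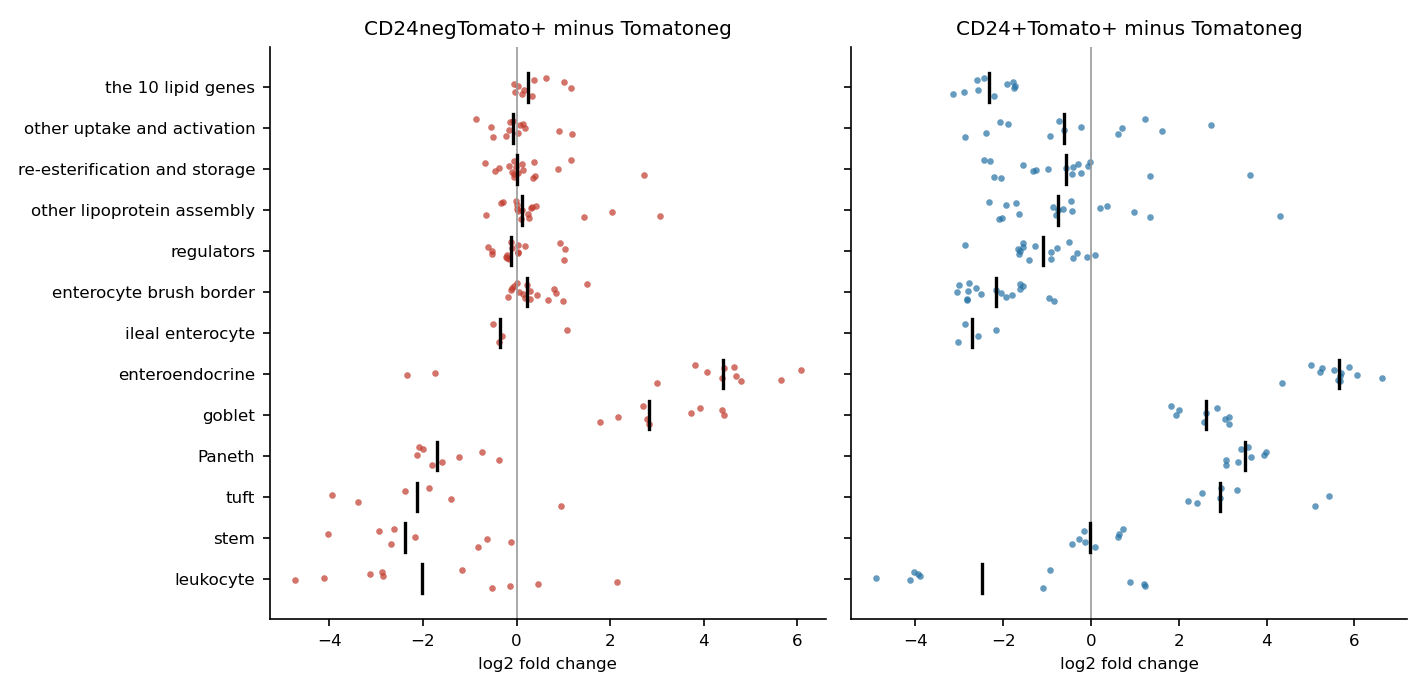
Log2 fold changes against Tomatoneg for the 10 lipid genes, for the other pathway genes by role and for marker lists, with 1 point per tested gene and a black bar at each list's median. In CD24+Tomato+ the lipid genes and the brush border genes share medians of -2.32 and -2.15, and in CD24negTomato+ both medians, 0.24 and 0.23, are near 0.

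In CD24negTomato+ cells no difference from Tomatoneg cells beyond the spread between libraries was found for the 10 genes with limma. None of the 10 was called with limma, against 1.32% of the 13420 genes tested in either direction, and 1, Fabp2, had an unadjusted p under 0.05, against 17.1% of all genes. With the block, Fabp2 and Apob were called higher, 2 of the 10 against 4.34% of all genes. All 10 genes overlapped between the populations, where 14.7% of all genes were apart and higher and 10.6% apart and lower. Cd36, Fabp2, Apob and Apoc3 were higher in all 3 pairs, 4 of the 10 against 28.7% of all genes. The median log2 fold change of the 10 was 0.24, beside 0.08 over all genes, and with library totals made equal these medians were 0.04 and -0.12. It was 0.97 without Tomatoneg replicate 1, 0.59 without CD24negTomato+ replicate 2, -0.14 without CD24negTomato+ replicate 1 and -0.04 without Tomatoneg replicate 2. At this spread a difference of the size estimated for most of these genes was not detectable.

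Among the uptake genes, Fabp2 read 66717, 46387 and 36187 normalized counts in CD24negTomato+ and 36762, 23481 and 15921 in Tomatoneg. Tomatoneg replicate 1 lay just above CD24negTomato+ replicate 3, and the pairs differed by similar amounts, 0.86, 0.98 and 1.18 on the log2 scale. Fabp2 was 2.01-fold higher, at 1.01 ± 0.39 (adjusted p = 0.248 with limma), and the adjusted p was 0.0183 with the block. Fabp1 read 42269, 21823 and 30093 against 51713, 13711 and 18041. It was lower in pair 1 and higher in pairs 2 and 3, at 0.37 ± 0.52 (adjusted p = 0.748). Cd36 read 639, 246 and 265 against 501, 192 and 118, at 0.62 ± 0.62 (adjusted p = 0.639 with limma).

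The acyltransferases differed by less than their spread between libraries. Dgat1 read 19057, 11035 and 18526 in CD24negTomato+ and 15814, 14607 and 19132 in Tomatoneg, at -0.06 ± 0.29 (adjusted p = 0.933 with limma). Dgat2 read 5620, 1907 and 3856 against 4909, 2073 and 3816, at 0.03 ± 0.46 (adjusted p = 0.982). In both genes the populations overlapped, and the sign changed between pairs.

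Apob had the largest estimate of the lipoprotein genes in CD24negTomato+. It read 35980, 20542 and 14215 normalized counts against 21055, 11363 and 3965 in Tomatoneg. Pair 3 differed most, at 1.84 on the log2 scale, against 0.77 and 0.85 in pairs 1 and 2. The log2 fold change was 1.16 ± 0.62, with an adjusted p of 0.378 with limma and 0.0422 with the block. Mttp read 69678, 36634 and 48853 against 79354, 32817 and 34723, at 0.15 ± 0.44, and Apoa1 read 151571, 57642 and 67570 against 198413, 53034 and 60317, at -0.03 ± 0.61. For Apoa4 the values were 104994, 24331 and 38918 against 144355, 17720 and 30407, at 0.12 ± 0.83, and for Apoc3 they were 5357, 1423 and 1244 against 5107, 1128 and 848, at 0.32 ± 0.78. Mttp, Apoa1 and Apoa4 were lower in pair 1 and higher in pairs 2 and 3, and in all 5 genes replicate 1 was the highest of its population.

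Transcript length moved with the fold changes in the table of CD24negTomato+ cells. Over all tested genes with a known length, the median log2 fold change was -0.20 for 1086 genes under 1 kb, -0.01 for 1 to 3 kb, 0.16 for 3 to 6 kb, 0.41 for 6 to 10 kb and 0.72 for 265 genes of 10 kb or more. Apob is in the longest class and Fabp2, with 965 bases, in the shortest, so that Apob stood 0.43 above its class median and Fabp2 1.21 above. Fabp1, Apoc3 and Cd36 also stood further above their class medians than Apob, by 0.57, 0.52 and 0.46. Relative to their class medians, Apoa4 was at 0.13, Dgat2 at 0.04, Mttp at -0.009, Apoa1 at -0.03 and Dgat1 at -0.05. In the CD24+Tomato+ table the medians were 0.10, 0.13, 0.16, 0.23 and 0.55 from the shortest to the longest class. The part of length in the Apob values was not tested.

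**Figure D4:**
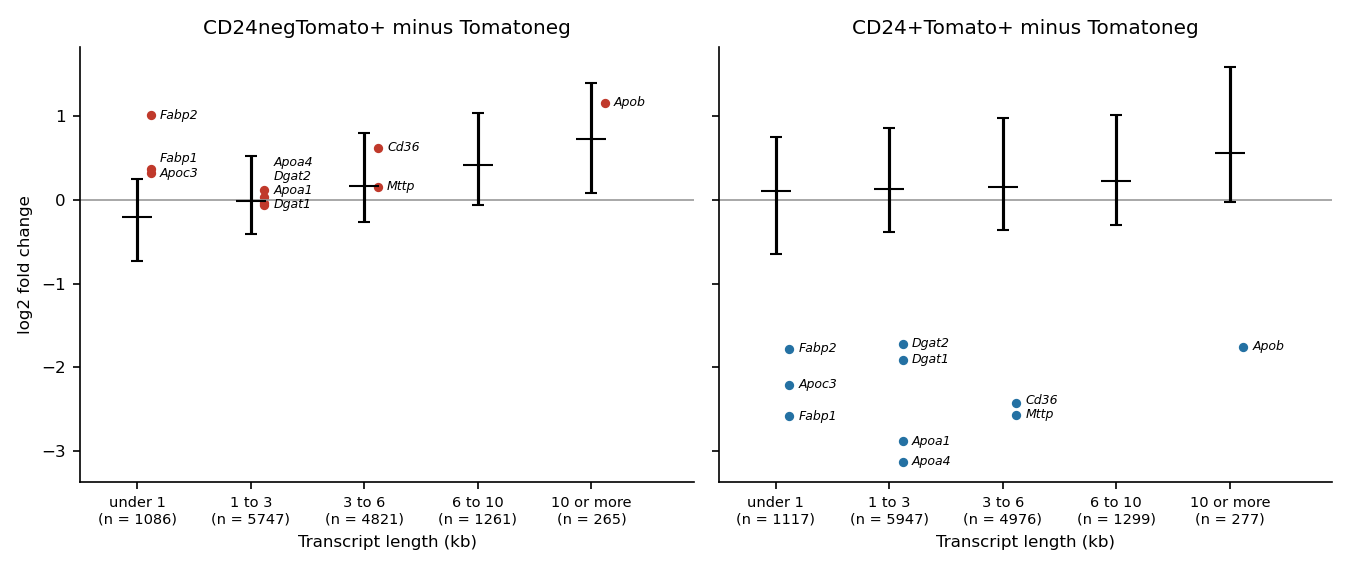
Log2 fold changes against Tomatoneg by transcript length in kilobases, with the median and quartiles of all tested genes in each class (black) and the 10 lipid genes as labelled points. In CD24negTomato+ the class medians run from -0.20 to 0.72, with Apob at 1.16 in the longest class. In CD24+Tomato+ all 10 lipid genes lie below the lower quartile of their class.

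Of the other pathway genes, 64 passed the filter in the CD24negTomato+ table, and 1 was called higher (0.999% of all genes) and none of the 64 lower (0.32% of all genes) with limma, with a median log2 fold change of 0.03 and 3 at an unadjusted p under 0.05. The one called was Mgll, at 661, 1142 and 929 normalized counts against 150, 110 and 147, or 2.72 ± 0.33 on the log2 scale (adjusted p = 0.0138). It was not called when any 1 CD24negTomato+ library was left out. With the block 3 were called higher, Mgll, Acbd3 and Lpin2, the last 2 named after their values were seen. Mogat2, Creb3l3, Hnf4a and Hnf4g were at -0.06 ± 0.34, 0.04 ± 0.42, -0.13 ± 0.22 and 0.94 ± 0.46, and none of these 4 was called with limma. Of 17 genes of the brush border list 0 were called with limma, with 1 at an unadjusted p under 0.05. With the block 1 was called higher, the keratin gene Krt20. The list had a median of 0.23 and a summed level of 15241 to 32248 CPM against 12347 to 40612. None of 4 ileal genes was called. Secretory markers differed in the same libraries, with 8 of 12 enteroendocrine and 8 of 9 goblet genes called higher, 0 of 8 Paneth genes called (6 at an unadjusted p under 0.05), and 2 of 6 tuft, 2 of 8 stem cell and 2 of 10 leukocyte genes called lower. With the block, 5 Paneth, 5 tuft, 4 stem cell, 4 leukocyte and 2 enteroendocrine genes were called lower. The goblet count was 4 without any 1 CD24negTomato+ library or Tomatoneg replicate 3, and 5 with library totals made equal or without the filter. No stem cell or tuft gene was called when any 1 CD24negTomato+ library was left out, and at most 1 leukocyte gene was. Without Tomatoneg replicate 1, 5 Paneth, 5 tuft, 4 stem cell and 5 leukocyte genes were called lower, and without Tomatoneg replicate 2 or 3 the last 3 lists had 0, 1 and 0. None of the endothelial and adipose, hepatocyte or acinar markers tested was called with limma, with 1, 1 and 0 at an unadjusted p under 0.05. The goblet genes summed to 70485 to 103609 CPM in CD24negTomato+ and 5292 to 9042 in Tomatoneg.

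Both comparisons share the Tomatoneg libraries, so their values are given side by side without a test. Tomatoneg values are those scaled with the CD24negTomato+ libraries, and CD24+Tomato+ values were scaled separately. CPM does not remove differences of this scaling between genes. In Tomatoneg replicate 1 the second scaling over the first was 0.957 for Apob, against a median of 1.08 over genes. In CPM, Fabp1 was at 1095 ± 362 in CD24negTomato+, 1103 ± 805 in Tomatoneg and 178 ± 115 in CD24+Tomato+ (mean ± SD, n = 3 each). Mttp was at 1804 ± 590, 1951 ± 1011 and 338 ± 200, and Dgat1 at 563 ± 143, 660 ± 62.8 and 184 ± 56.5, in the same order. In these 3 genes the CD24negTomato+ and Tomatoneg libraries overlapped, and the CD24+Tomato+ mean was below both other means. Fabp2 was at 1748 ± 587, 1020 ± 417 and 305 ± 155 and Apob at 830 ± 409, 489 ± 338 and 140 ± 129, and for both the first value was the highest.

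Ratios of 2 genes within a library do not depend on its total, and they were chosen after the values were seen, so they carry no test. They do depend on the scaling of each gene, which differed between the deposited tables. Tomatoneg replicate 1 thus had Apob over Apoa1 of 0.106 in one and 0.0939 in the other. The part of transcript length in these ratios was not tested. Fabp2 over Fabp1 was 1.58, 2.13 and 1.20 in CD24negTomato+, against 0.711, 1.71 and 0.882 in Tomatoneg. In the other table it was 1.54, 2.26 and 1.63 in CD24+Tomato+, against 0.708, 1.71 and 0.879. Each pair was thus higher in Tomato+ cells in both tables, and replicate 2 had the highest ratio in all 3 populations. Apob over Apoa1 was 0.237, 0.356 and 0.210 in CD24negTomato+, against 0.106, 0.214 and 0.0657, and 0.217, 0.258 and 0.193 in CD24+Tomato+, against 0.0939, 0.190 and 0.0582. These CD24+Tomato+ values were apart from Tomatoneg, and those of CD24negTomato+ overlapped narrowly. Apoa4 over Apoa1 overlapped, at 0.566, 0.313 and 0.409 in CD24+Tomato+ against 0.725, 0.333 and 0.503. Apoc3 over Apoa1 was also apart, at 0.0353, 0.0321 and 0.0269 in CD24+Tomato+ against 0.0255, 0.0211 and 0.0139. In CD24negTomato+ that ratio overlapped with Tomatoneg, at 0.0353, 0.0247 and 0.0184 against 0.0257, 0.0213 and 0.0141.

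**Figure D5:**
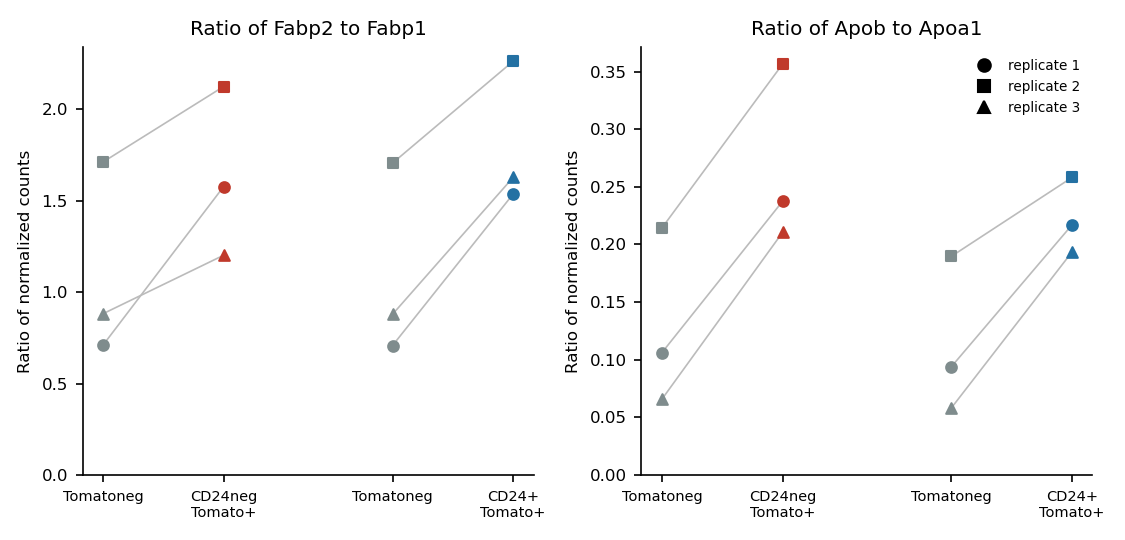
Ratios of normalized counts within each library for Fabp2 over Fabp1 (left) and Apob over Apoa1 (right), with lines joining same-numbered replicates within a table. Every line rises from Tomatoneg to Tomato+ cells.

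Across the 9 libraries the 10 genes ran together. The 45 pairwise Pearson correlations of log2(CPM + 1) ranged from 0.725 for Dgat1 and Apob to 0.990 for Fabp1 and Mttp, with a median of 0.925. The points share libraries and the 3 populations, so these values are descriptions. Of 12408 other genes, those most like the mean of the 10 over the 9 libraries were Aldh1a1, a retinaldehyde dehydrogenase (r = 0.997), Slc5a1 (0.996), Npc1l1, the cholesterol uptake protein of the brush border (0.995), Treh, the brush border trehalase (0.995), and Gdpd2, a phosphodiesterase (0.995). Aldh1a1 was at 260, 79.8 and 93.7 CPM in CD24negTomato+, at 252, 81.4 and 72.1 in Tomatoneg and at 43.9, 11.9 and 11.9 in CD24+Tomato+, so its CD24+Tomato+ values were the lowest.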

How the data were processed

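Poly-A RNA of 3 sorted populations, 3 libraries each, was sequenced by the authors, who deposited 2 tables of normalized counts, a signal per gene and library. According to the submitters' processing notes the tools were bcl2fastq 2.19, kallisto 0.44.0, sleuth and DESeq2, with GRCm38. CD24negTomato+ and Tomatoneg libraries are in one table, CD24+Tomato+ and the same Tomatoneg libraries in the other. The tables were scaled separately, and the factor of a shared library differed between genes, so tests stayed within a table. Whole reads were not recovered, since 25.9% to 47.6% of values under 20 lay within 0.02 of a whole multiple of the most common low value. Genes whose mean over the 6 libraries reached 10 were kept (13420 and 13874). Their log2(normalized count + 1) was tested, two-sided, with limma 3.58.1 (trended eBayes) in R 4.3.3, with Benjamini-Hochberg adjustment over all genes kept and a threshold of 0.05. A fold change is thus on the log2(normalized count + 1) scale, which understates changes of low genes. The script was tested on simulated data.

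The sample titles give replicate numbers, and same-numbered libraries were taken as pairs. Deviations from the group means correlated between same-numbered libraries by 0.302, 0.291 and 0.342 in replicates 1, 2 and 3 of the CD24negTomato+ table. In the other table these correlations were 0.283, 0.18 and 0.375. Neither labels nor methods say whether same-numbered libraries share mice or a sort, so the pairing and the block rest on an assumption. The block was an alternative fit, beside other pseudocounts, filters, scalings, eBayes without trend and single libraries left out. Leaving out replicate 1 of both populations was added after the data were seen. The 10 genes, the 67 pathway genes and the marker lists were chosen with earlier results of these data known. Beside the 10 genes and Foxo1, the text names the 8 pathway genes with the largest change among those called, Hnf4a, Hnf4g, Creb3l3 and Mogat2, the most abundant markers, and the 5 genes most like the mean of the 10. Not every gene that this rule admits is described. Hpx, Alb, Lpl, Adipoq and Krt20 were named outside this rule. Positions are from GENCODE M21 (GRCm38) and promoters from RefSeq. Single-cell and organoid results were not analysed here. Figures were drawn with matplotlib 3.10.9.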

Additional observations from a re-analysis of the deposited data

Results flagged for a closer look

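For 4 of the 10 genes, all 3 same-numbered pairs were higher in CD24negTomato+ cells and all 3 were lower in CD24+Tomato+ cells. All 10 were lower in every CD24+Tomato+ pair, so the 4 are those higher in every CD24negTomato+ pair, against 28.7% of all genes. Cd36 had log2 fold changes against Tomatoneg of 0.62 and -2.43 in these populations, Fabp2 of 1.01 and -1.78, Apob of 1.16 and -1.75, and Apoc3 of 0.32 and -2.21. In CD24negTomato+ all 4 overlapped with Tomatoneg and none was called with limma. The adjusted p there was 0.639 for Cd36, 0.248 for Fabp2, 0.378 for Apob and 0.862 for Apoc3. With the block, Fabp2 and Apob were called higher. The 2 Tomato+ populations were not tested against each other, because they are in separately scaled tables and share the Tomatoneg libraries.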

How the results depend on the processing

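Read depth is unknown and each population has 3 libraries whose lipid genes spread widely, so the number of libraries limits what can be called. All 10 genes stayed lower in CD24+Tomato+ cells under every alternative run. The count called lower, 6 of the 10, became 2 by eBayes without trend and 10 with the replicate block. Leaving out single libraries gave 0 to 5 called and a median log2 fold change of the 10 from -2.92 to -1.88. The count of all genes called in that comparison, 1791, became 2885 with the block and 168 to 2478 with single libraries left out. The split of 1113 higher and 678 lower became 991 and 1036 under quantile normalization.

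In CD24negTomato+ cells the 177 genes called (134 higher, 43 lower) became 112 with a pseudocount of 0.1, 415 with a pseudocount of 10, 494 under quantile normalization (304 and 190), 158 with library totals equalised (98 and 60), 291 by eBayes without trend, 979 with the block, 106 without replicate 1 of both populations and 18 to 1059 with single libraries left out. None of the 10 genes was called higher or lower in CD24negTomato+ except for 2 called higher with the block. The block changed no call among the 10 genes beyond those given in the report. The median of the 10, 0.24, was 0.037 with library totals equalised, and -0.14 to 0.97 with single libraries left out. Signs that turned were those of Dgat1 (0.0055 under quantile normalization), Dgat2 (-0.17 with equal totals, -0.013 under quantile normalization and -0.053 without replicate 1 of both populations), Mttp (-0.045 with equal totals), Apoa4 (-0.082 with equal totals) and Apoa1 (0.14 without replicate 1 of both populations). With single libraries left out the log2 fold changes ran from -0.013 to 0.94 for Fabp1, -0.20 to 0.20 for Dgat1, -0.32 to 0.46 for Dgat2, -0.085 to 0.57 for Mttp, -0.46 to 0.57 for Apoa1, -0.52 to 0.997 for Apoa4 and -0.35 to 1.11 for Apoc3. Equal totals moved the median of all genes from 0.08 to -0.12, by construction of that scaling. The cause of the other changes was not tested.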
